A study of Mus musculus with 4 samples.

Results

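Prostaglandin E2 (PGE2) is a lipid signal made from arachidonic acid, and the 10 genes described here encode the enzymes that make it, the machinery that removes it and the receptors that sense it. The members were taken by gene symbol from the deposited count table of 53819 symbols: the cyclooxygenase genes Ptgs1 and Ptgs2, the terminal synthase genes Ptges, Ptges2 and Ptges3, the breakdown gene Hpgd, the uptake transporter gene Slco2a1, and the receptor genes Ptger2, Ptger3 and Ptger4. All 10 symbols were present, and all 10 were among the 18788 genes that passed the filter on low counts. Cyclooxygenases turn arachidonic acid into prostaglandin H2, and terminal synthases convert that into PGE2. PGE2 acts on the receptors EP1 to EP4, is carried into cells by the Slco2a1 product and is oxidised there by the Hpgd product. In the gut, PGE2 is known for protecting and regrowing the epithelium and for acting on immune cells.

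RNA was sequenced from material labelled as primary colonic eosinophils of wild-type (WT) C57Bl/6 mice. Eosinophils are granulocytes that also reside in the intestinal wall. One group of mice received 3% dextran sulfate sodium (DSS), which damages the lining of the colon and so provokes colitis, and the control group received water. Each group had 2 libraries, all with the tag D6 in their titles. The title of the series concerns COX-2, the product of Ptgs2, and a link between PGE2 and interleukin-22. The sources used here do not say how the cells were isolated or whether animals were pooled.

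Library totals ran from 30985905 to 34126329 counts. Levels are given as CPM, counts scaled to a common library total after adjustment by TMM, a scaling that corrects for differences in composition. Immunoglobulin transcripts took 31.76% of counts in DSS replicate 1 and between 6.78% and 8.31% in the other libraries. All libraries held fewer transcripts of eosinophil markers than of epithelial markers. Together, Siglecf, Il5ra and Ccr3, which encode receptors that define eosinophils, came to 35.0 and 116 CPM in DSS replicates 1 and 2, against 0.948 and 27.2 CPM in water replicates 1 and 2. Epx, the eosinophil peroxidase gene, had 0 counts in DSS replicate 1 and in water replicate 1. A list of 9 epithelial markers summed to 3510 and 8530 CPM in DSS and to 8920 and 5930 CPM in water. A list of 4 prostate genes summed to 0 and 0.171 CPM in DSS and to 159 and 131 CPM in water, so both water libraries held transcripts of a tissue that the labels do not name. The values below therefore describe libraries of mixed cell content, in which a change in the share of a cell type and a change in RNA per cell cannot be told apart.

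The regions before 3 of the genes are shown because Ptgs2 and Hpgd differed most between the groups and Ptgs1 is the second cyclooxygenase gene. Each sequence is a RefSeq window on GRCm38.p6, plus strand, covering 250 bases before the RefSeq gene start and 50 bases from it on. That start and the GENCODE start used for the gene coordinates below are the same base for Ptgs2 and Ptgs1, while for Hpgd the GENCODE start, 56294585, lies 33 bases downstream of the RefSeq start, 56294552. The Ptgs2 window is chr1:150099781-150100080, the Ptgs1 window is chr2:36230176-36230475 and the Hpgd window is chr8:56294302-56294601. Capitals mark matches on either strand to the motifs named after the sequences.
Ptgs2: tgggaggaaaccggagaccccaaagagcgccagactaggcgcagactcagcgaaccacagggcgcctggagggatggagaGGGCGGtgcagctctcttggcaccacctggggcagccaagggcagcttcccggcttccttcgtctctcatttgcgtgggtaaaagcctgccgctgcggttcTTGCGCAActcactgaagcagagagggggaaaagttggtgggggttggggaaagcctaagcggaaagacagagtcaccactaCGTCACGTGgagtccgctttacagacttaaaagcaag
Ptgs1: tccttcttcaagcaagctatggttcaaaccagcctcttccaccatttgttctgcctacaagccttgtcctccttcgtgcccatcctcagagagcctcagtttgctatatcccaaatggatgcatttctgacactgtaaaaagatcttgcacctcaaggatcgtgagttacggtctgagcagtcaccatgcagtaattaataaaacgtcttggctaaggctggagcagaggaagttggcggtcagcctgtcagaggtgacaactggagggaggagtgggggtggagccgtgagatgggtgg
Hpgd: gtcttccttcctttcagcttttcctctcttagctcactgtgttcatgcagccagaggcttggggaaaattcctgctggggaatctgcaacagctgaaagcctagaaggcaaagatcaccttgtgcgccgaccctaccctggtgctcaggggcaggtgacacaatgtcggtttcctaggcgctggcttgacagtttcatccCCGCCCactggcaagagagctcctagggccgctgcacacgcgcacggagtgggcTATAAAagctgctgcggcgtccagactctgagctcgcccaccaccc
The Ptgs2 window held TTGCGCAA, the palindromic core bound by C/EBP factors, at positions -69 to -62 from the RefSeq start, which is position 1. That motif occurred in 0.2% of 32851 windows of the same length. It also held the cAMP response element half-site TGACG on the minus strand at positions 14 to 18, and the E-box CACGTG at positions 17 to 22, which overlaps the half-site. These occurred in 20.8% and 7.2% of windows. The GC box GGGCGG was found once in the Ptgs2 window, at -170 to -165, and in 35.7% of all windows. In the Hpgd window the TATA box TATAAA stood at positions 5 to 10 and a GC box at -50 to -45 from the RefSeq start. Counted from the GENCODE start, they stood upstream, at -29 to -24 and at -83 to -78. TATAAA occurred in 13.6% of windows. No letters of the Ptgs1 window matched any motif searched, which included the NF-kB motif (5.8% of windows). The NF-kB motif matched in neither the Ptgs2 nor the Hpgd window, and C/EBP's TTGCGCAA was in no other member's window. Sites more than 250 bases before the RefSeq start were not searched, so a missing match holds for the window only.

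The 2 cyclooxygenase genes stood at different levels and showed different patterns. Ptgs2, which encodes the inducible enzyme COX-2 (chromosome 1, 150100031 to 150108227, plus strand), had 910.0 and 601 CPM in DSS replicates 1 and 2, against 70.5 and 284 CPM in water replicates 1 and 2. Both DSS libraries were above both water libraries, and the lower DSS library stood 2.12 times above the higher water library. The mean was 756 ± 218 CPM in DSS and 177 ± 151 CPM in water (SD, n = 2 each), with a 4.02-fold gap between the water libraries and a 1.51-fold gap between the DSS libraries. The log2 fold change, DSS over water, was 2.09 (SE 0.70, 95% interval 0.39 to 3.80). By edgeR's quasi-likelihood test it was not called at an adjusted p under 0.05 (adjusted p = 0.534, unadjusted p = 0.0238). DESeq2's Wald test called it (log2 fold change 2.08, SE 0.56, adjusted p = 0.0127). It was 1.38 without water replicate 1 and 3.43 without water replicate 2 with edgeR, on the log2 scale. Leaving out water replicate 1 ended the DESeq2 call (1.41, adjusted p = 0.275), as did leaving out DSS replicate 1 (1.76, adjusted p = 0.330).

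Ptgs1 encodes COX-1, the cyclooxygenase that most tissues make constantly (chromosome 2, 36230426 to 36252272, plus strand). It had 24.7 and 26.1 CPM in DSS and 25.1 and 42.6 CPM in water. Water replicate 1 lay between the DSS libraries, so the groups overlapped. Its log2 fold change was -0.42 (SE 0.33, 95% interval -1.22 to 0.38, edgeR adjusted p = 0.803), and it was 0.02 without water replicate 2. Gm43621, a minus-strand feature that shares 148 exonic bases with Ptgs1, had 22 to 41 counts per library, against 663 to 1460 counts of Ptgs1.

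Genes were compared per kilobase of exon, with length taken over all annotated exons of a gene, noncoding isoforms included. Ratios and ranks between genes therefore depend on the annotated length. Per kilobase, Ptgs2 stood at 31.3 and 19.6 times the Ptgs1 level in DSS and at 2.38 and 5.64 times in water. The DSS libraries were above the water libraries in this ratio. Ptgs2 made up 96.9% and 95.1% of the summed cyclooxygenase level per kilobase in DSS, against 70.4% and 85.0% in water. Ranked by level per kilobase among 14951 protein-coding genes tested, Ptgs2 was number 128 and 250 in DSS replicates 1 and 2, and number 2593 and 500 in water replicates 1 and 2. Ptgs1 was number 5700 and 5710 in DSS and number 5632 and 3508 in water.

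**Figure D1:**
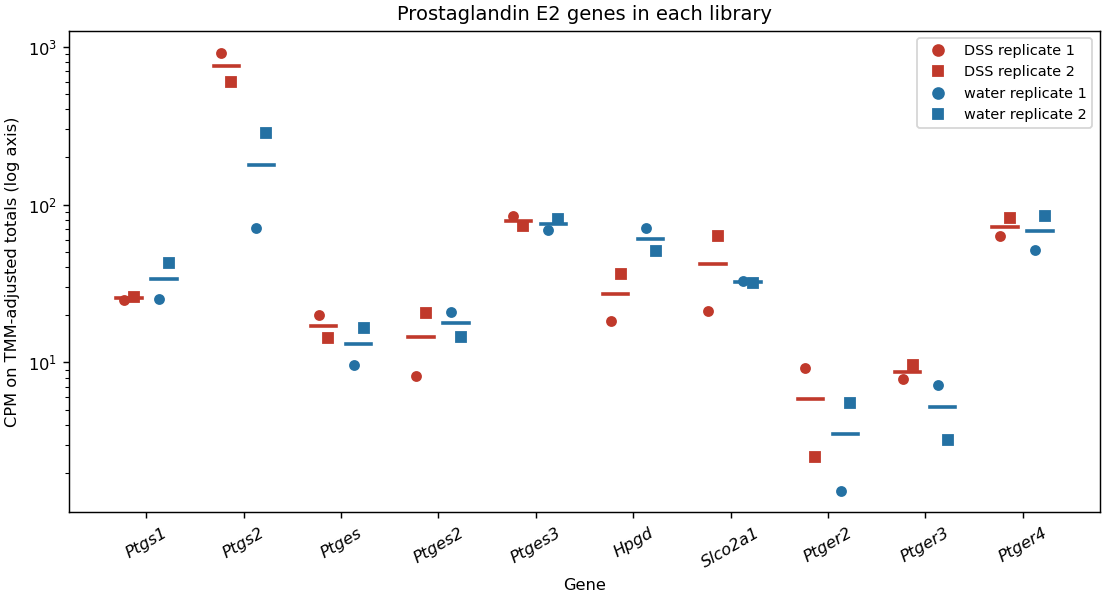
CPM of the 10 genes in each library on a log axis, with DSS libraries in red to the left and water libraries in blue to the right, circles for replicate 1, squares for replicate 2, and a line at each group mean. Ptgs2 had 910.0 and 601 CPM in DSS and 70.5 and 284 CPM in water, Hpgd lay lower in both DSS libraries than in either water library, and Ptger3 lay slightly higher.

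A long noncoding RNA named after Ptgs2 was low and had the same order of groups. Ptgs2os2, which lies 50816 bases beyond the gene on the minus strand, had 99 and 114 counts in DSS and 4 and 42 counts in water (log2 fold change 2.36, SE 1.04, edgeR adjusted p = 0.635). Ptgs2os, a minus-strand transcript that begins 68 bases before the Ptgs2 start and runs away from it, had 12 and 26 counts in DSS and 4 and 0 in water. Neither overlaps a Ptgs2 exon in the annotation.

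The terminal synthase genes did not separate the groups. Ptges, which encodes the inducible microsomal synthase that is often paired with COX-2, had 19.9 and 14.3 CPM in DSS and 9.57 and 16.4 CPM in water. DSS replicate 2 was below water replicate 2, so the groups overlapped (log2 fold change 0.40, SE 0.38, 95% interval -0.53 to 1.33, edgeR adjusted p = 0.845). Ptges2, a membrane-associated synthase gene, had 8.22 and 20.6 CPM in DSS and 20.9 and 14.5 CPM in water. The 2 DSS libraries differed 2.50-fold from each other, more than the group means of 14.4 ± 8.73 and 17.7 ± 4.56 CPM in DSS and water (SD, n = 2 each) differed. For Ptges2 the log2 fold change was -0.29 (SE 0.49, 95% interval -1.48 to 0.89), and it became 0.21 without DSS replicate 1. Ptges3, whose product p23 is both a cytosolic synthase and a co-chaperone of Hsp90, had 84.5 and 73.3 CPM in DSS and 69.4 and 81.0 CPM in water. It was the most even of the members, with gaps inside each group of at most 1.17-fold and a log2 fold change of 0.07 (SE 0.27, 95% interval -0.58 to 0.72). The processed pseudogene Ptges3-ps had 12 to 17 counts per library, against 2271 to 2775 counts of Ptges3.

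Ptges3 supplied most of the synthase transcripts in every library. Per kilobase of exon it made up 85.1% and 81.1% of the 3 synthase genes in DSS, against 82.7% and 83.9% in water. Ptges, the COX-2 partner, made up 11.3% and 8.94% in DSS, against 6.43% and 9.55% in water.

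Hpgd encodes 15-hydroxyprostaglandin dehydrogenase, which inactivates PGE2 (chromosome 8, 56294585 to 56321043, plus strand). It had 18.3 and 36.3 CPM in DSS and 71.0 and 50.4 CPM in water. Both DSS libraries were below both water libraries, and the lower water library was 1.39 times the higher DSS library. The mean was 27.3 ± 12.8 CPM in DSS and 60.7 ± 14.6 CPM in water (SD, n = 2 each). This gave a log2 fold change of -1.15 (SE 0.40, 95% interval -2.12 to -0.18), with an edgeR adjusted p of 0.537 (unadjusted p = 0.0270) and a DESeq2 adjusted p of 0.176. On the log2 scale it was -0.75 without DSS replicate 1 and -1.73 without DSS replicate 2 with edgeR. DESeq2 called it when DSS replicate 2 was left out (adjusted p = 0.0299).

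Epithelial cells are a main source of Hpgd in the colon, and epithelial markers varied between the libraries. Hpgd per summed level of the 9 epithelial markers, both per kilobase, was 0.00655 and 0.00545 in DSS and 0.00954 and 0.0123 in water, lower in both DSS libraries. Smooth muscle markers, which summed to 1230 and 1360 CPM in DSS and to 1510 and 2260 CPM in water, were lower in both DSS libraries, as was the sum of the 4 prostate genes. The part of these cell types in the Hpgd values was not tested.

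Slco2a1, which encodes the transporter that takes PGE2 into cells for breakdown, had 21.0 and 63.1 CPM in DSS and 33.0 and 31.6 CPM in water. The DSS libraries lay on either side of the water libraries and differed 3.01-fold from each other, while the water libraries differed 1.05-fold. Its log2 fold change was 0.38 (SE 0.51, 95% interval -0.85 to 1.61, edgeR adjusted p = 0.893), and it was -0.62 without DSS replicate 2. Slco2a1 is known from vascular endothelium, and 5 endothelial markers summed to 238 and 388 CPM in DSS and to 238 and 291 CPM in water. Relative to these markers, both per kilobase, Slco2a1 was 0.0413 and 0.0747 in DSS and 0.0658 and 0.051 in water, so the groups overlapped. Their part in the Slco2a1 values was not tested. Slco2a1 per kilobase was 0.142 and 0.216 times Hpgd in DSS and 0.0577 and 0.0779 times Hpgd in water. These ratios rest on annotated exon lengths of 13545 bases for Slco2a1 and 1683 bases for Hpgd. In CPM, Slco2a1 stood above Hpgd in both DSS libraries (Hpgd 18.3 and 36.3 CPM) and below it in both water libraries (Hpgd 71.0 and 50.4 CPM).

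The balance between synthesis and breakdown genes separated the groups in the same direction as its parts. The ratio of Ptgs2 to Hpgd per kilobase was 18.3 and 6.09 in DSS and 0.365 and 2.07 in water. Water replicate 1 alone had less Ptgs2 than Hpgd. These ratios are given as values with no test, since Ptgs2 and Hpgd were paired with their group values known.

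**Figure D2:**
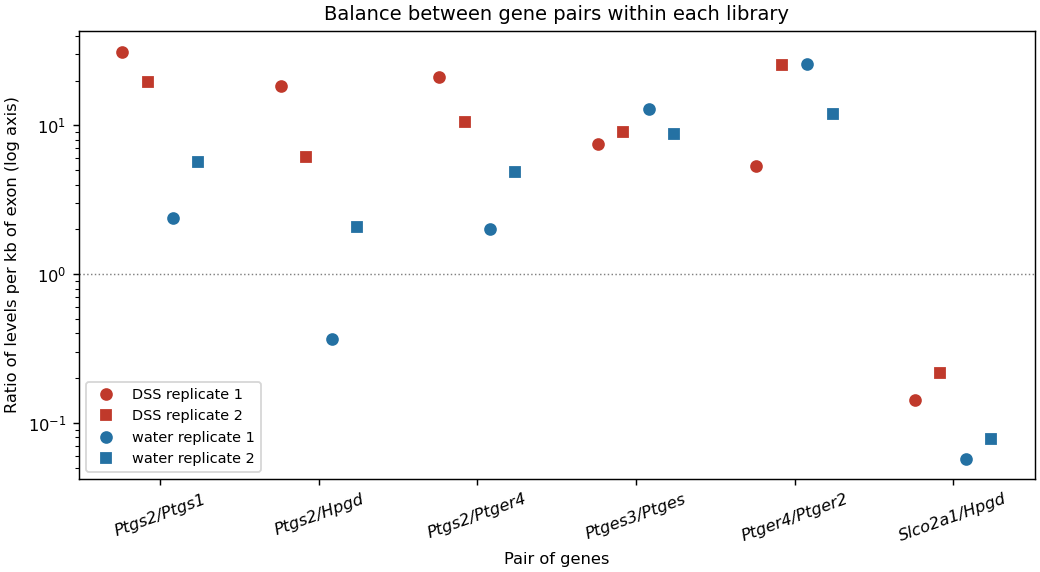
Ratio of the level per kilobase of exon of one gene to another in the same library, on a log axis, with DSS libraries in red left of water libraries in blue, circles for replicate 1 and squares for replicate 2. The ratios Ptgs2/Ptgs1, Ptgs2/Hpgd, Ptgs2/Ptger4 and Slco2a1/Hpgd were higher in both DSS libraries than in both water libraries, while Ptges3/Ptges and Ptger4/Ptger2 overlapped.

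Of the 3 receptor genes, Ptger4 was the highest per kilobase in every library. It encodes EP4, a receptor that raises cAMP, and had 62.9 and 82.1 CPM in DSS and 51.3 and 84.2 CPM in water. In each group replicate 2 stood above both replicate 1 libraries, and the spread inside the groups was larger than the difference between their means of 72.5 ± 13.6 CPM in DSS and 67.7 ± 23.2 CPM in water (SD, n = 2 each). The log2 fold change was 0.10 (SE 0.34, 95% interval -0.73 to 0.92, edgeR adjusted p = 0.968), and it was -0.25 without water replicate 1 and -0.11 without DSS replicate 2. Ptger4 shares 82 exonic bases with Ttc33 on the other strand, which had 173 to 406 counts per library, against 1691 to 2885 counts of Ptger4.

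Ptger2 encodes EP2, the other receptor that raises cAMP. It had 9.15 and 2.53 CPM in DSS and 1.54 and 5.52 CPM in water. High and low libraries were found in both groups, with gaps of 3.61-fold inside DSS and 3.58-fold inside water. A log2 fold change of 0.72 (SE 0.84, 95% interval -1.33 to 2.77) became -0.50 without DSS replicate 1.

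Ptger3 encodes EP3, which mainly lowers cAMP, and had 7.89 and 9.59 CPM in DSS and 7.23 and 3.21 CPM in water. Both DSS libraries were above both water libraries, but DSS replicate 1 was only 1.09 times water replicate 1. The log2 fold change was 0.74 (SE 0.50, 95% interval -0.48 to 1.96, edgeR adjusted p = 0.766), and it was 1.41 without water replicate 1 and 0.28 without water replicate 2. Ptger1, which encodes EP1 and is not among the 10 members, had 2.57 and 2.56 CPM in DSS and 1.54 and 4.44 CPM in water. Per kilobase, Ptger4 made up 75.0% and 85.0% of the transcripts of Ptger2, Ptger3 and Ptger4 in DSS, against 83.1% and 88.6% in water.

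As a group, no member was called by edgeR, which called 3 of all 18788 genes tested (0.016%). At an unadjusted p under 0.05, 2 of 10 members passed, where 8.45% of all genes did. Of these, Ptgs2 was higher, as 5.06% of all genes were, and Hpgd was lower, as 3.39% were. DESeq2 called 1 member, Ptgs2, where it called 2.53% of all genes with an adjusted p, 1.64% higher and 0.89% lower. Without a count filter edgeR called Ptgs2 higher (adjusted p = 0.00140) and Hpgd lower (adjusted p = 0.0287), in a fit that called 3.79% of 27735 genes, 2.56% higher and 1.23% lower. The groups did not overlap for 3 of 10 members, where the same held for 39.5% of all genes. Ptgs2 and Ptger3 were higher in both DSS libraries, as 20.8% of all genes were, and Hpgd was lower, as 18.7% were. These shares of members rest on 1 to 3 genes. Among the members 7 fold changes were positive and 3 negative, and their median was 0.24 (log2), beside -0.01 for all genes tested.

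**Figure D3:**
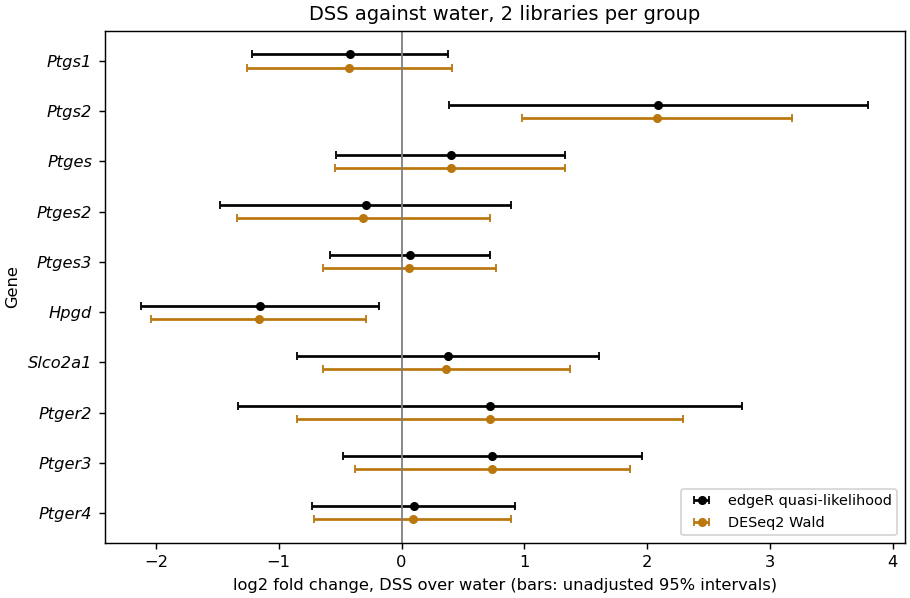
Log2 fold change of the 10 genes, DSS over water, with unadjusted 95% intervals, from edgeR (black) and DESeq2 (orange), 2 libraries per group. The intervals of Ptgs2 (0.39 to 3.80 with edgeR) and Hpgd (-2.12 to -0.18) lay on one side of 0 in both tools, and those of the other 8 genes included 0.

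Ordered by mean level per kilobase, the 5 highest members were the same in both groups, with Ptges3 and Hpgd in opposite order. In DSS, Ptgs2 averaged 165 ± 47.6, followed by Ptges3 with 35.6 ± 3.57, Hpgd with 16.2 ± 7.58, Ptger4 with 10.9 ± 2.04 and Ptgs1 with 6.53 ± 0.254 CPM per kilobase (SD, n = 2). In water, Ptgs2 averaged 38.7 ± 32.9, Hpgd 36.1 ± 8.68, Ptges3 33.9 ± 3.72, Ptger4 10.2 ± 3.49 and Ptgs1 8.72 ± 3.19 CPM per kilobase (SD, n = 2). In DSS, the means of Hpgd and Ptger4 lay within the SD of Hpgd. In water, the means of Hpgd, Ptges3, Ptger4 and Ptgs1 all lay within the SD of Ptgs2, so its first place there is not beyond the spread. The other 5 genes averaged at most 4.36 CPM per kilobase in DSS, for Ptges, and at most 3.49 in water, for Ptges2. Ptger2 and Ptger3 took the lowest positions in DSS replicate 2 and in both water libraries, while in DSS replicate 1 Slco2a1 and Ptger3 did.

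Summed markers of neutrophils, eosinophils, mast cells and of B and plasma cells were higher in both DSS libraries than in both water libraries, as Ptgs2 was. A list of 10 neutrophil markers summed to 1150 and 1650 CPM in DSS and to 41.0 and 154 CPM in water, with Camp at 0 in both water libraries and Ngp, Cxcr2 and Mmp8 each at 0 in 1 of them. A list of 10 eosinophil markers summed to 94.4 and 352 CPM in DSS and to 7.85 and 72.9 CPM in water. Alox15 was the largest part of each sum, at 43.4 and 225 CPM in DSS and 4.24 and 43.5 CPM in water, and overlapped between the groups. Taken singly, 3 of the 7 tested eosinophil markers were higher in both DSS libraries, beside 20.8% of all genes. The 8 mast cell markers summed to 113 and 256 CPM in DSS and to 39.2 and 97.5 CPM in water. In water replicate 1, Kit alone had 36.9 CPM, and Mcpt1, Fcer1a and Ms4a2 had 0 counts. Of the 8 mast cell markers, 6 were higher in both DSS libraries, beside 20.8% of all genes, and Mcpt1 and Mcpt2 overlapped. The sums of these 3 lists were highest in DSS replicate 2, whereas Ptgs2 was highest in DSS replicate 1. Single markers did not all follow their sum. Csf3r (417 and 109 CPM in DSS replicates 1 and 2), Cxcr2, Prg2, Ear2, Mcpt4 and Kit were highest in DSS replicate 1. The other markers of the 3 lists were higher in DSS replicate 2 than in DSS replicate 1. Among the sums, those of the 5 B and plasma cell markers and the 6 T cell markers were highest in DSS replicate 1, like Ptgs2. The B and plasma cell sums were 34500 and 6950 CPM in DSS and 6460 and 5560 CPM in water. For the T cell markers the sums were 117 and 62.8 CPM in DSS and 25 and 65.0 CPM in water. The T cell sums overlapped between the groups. Taken singly, 5 of the 6 genes were higher in both DSS libraries, beside 20.8% of all genes. The 8 macrophage markers, at 699 and 863 CPM in DSS and 662 and 1790 CPM in water, and the 7 fibroblast markers, at 3590 and 7160 CPM in DSS and 2170 and 4410 CPM in water, overlapped between the groups.

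Set against these markers within each library, Ptgs2 gave different pictures. Per kilobase, Ptgs2 stood at 17.8 and 3.55 times the summed eosinophil receptors Siglecf, Ccr3 and Il5ra in DSS, and at 46.2 and 6.97 times in water, so the groups overlapped. Relative to the summed neutrophil markers it was 0.152 and 0.0548 in DSS and 0.553 and 0.347 in water, lower in DSS. The make-up of that sum differed between libraries. In water replicate 1, Csf3r (19.5 CPM) and Ly6g (18.3 CPM) held most of its 41.0 CPM. S100a9 had 367 and 479 CPM in DSS and 0.652 and 13.7 CPM in water. The direction of this ratio therefore holds for the sum and not for each marker. Relative to the macrophage markers it was 0.519 and 0.273 in DSS and 0.0377 and 0.0576 in water, higher in DSS. Relative to the fibroblast markers it was 0.423 and 0.152 in DSS and 0.0526 and 0.109 in water, again higher in DSS. Which cells held the Ptgs2 transcripts was not tested.

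**Figure D4:**
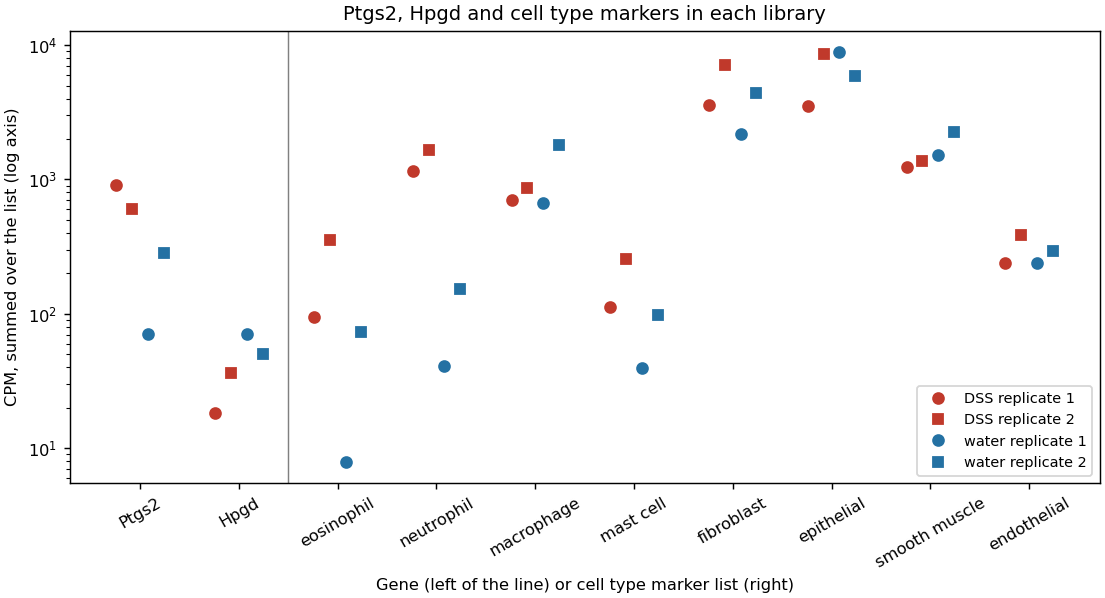
CPM of Ptgs2 and Hpgd and summed CPM of 8 cell type marker lists in each library, on a log axis, with DSS libraries in red left of water libraries in blue, circles for replicate 1 and squares for replicate 2. Neutrophil, eosinophil and mast cell sums were higher in both DSS libraries than in both water libraries, with the neutrophil sum at 1150 and 1650 CPM in DSS and 41.0 and 154 CPM in water.

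The genes whose pattern over the 4 libraries was most like that of Ptgs2 were found by the root-mean-square difference of log2 CPM, each gene centred on its own mean, among 9973 protein-coding genes of at least 10 CPM. The nearest was Nlrp3, which encodes the sensor of an inflammasome, at a distance of 0.052, where the median gene lay at 1.419. Nlrp3 had 201 and 129 CPM in DSS and 15.0 and 56.7 CPM in water. It was followed by Snai1, a transcriptional repressor gene (0.109), Sh2d2a, an adaptor gene of T cells (0.122), Emilin2, an extracellular glycoprotein gene (0.190), and Plek, a leukocyte and platelet signalling gene (0.200). This likeness rests on 4 libraries.

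Upstream of the cyclooxygenases, the list for the release and handling of arachidonic acid held phospholipase genes together with Anxa1, Acsl4 and Mgll. A higher level of a listed gene is therefore not read as more supply. Of its 13 tested genes, edgeR called 0. Fold changes were positive for 4 and negative for 9, with a median of -0.55 (log2), beside -0.01 for all genes. Anxa1 and Acsl4 were higher in both DSS libraries than in either water library, as 20.8% of all genes were, and 4 genes, all phospholipase genes, were lower, as 18.7% were. At an unadjusted p under 0.05, Acsl4, which traps arachidonic acid in cells, was higher and Pla2g4c and Pla2g2a were lower, beside 5.06% and 3.39% of all genes. Epithelial markers had negative fold changes in 9 of 9 genes (median -0.40, log2) and smooth muscle markers in 6 of 6 (median -0.57, log2). The epithelial sums of 3510 and 8530 CPM in DSS and 8920 and 5930 CPM in water overlapped, and the part of either cell type in this list was not tested. DESeq2 called 2 genes of the list lower, beside 0.89% of all genes. These were Pla2g4c and the pancreatic gene Pla2g1b, which is not among the 13 tested with edgeR. Pla2g1b had 78.2 CPM in water replicate 1 and 0 counts in the other 3 libraries, so its call rests on 1 library. Pla2g4c, a cytosolic phospholipase A2 gene, had 4.54 and 2.31 CPM in DSS and 17.7 and 20.1 CPM in water (log2 fold change -2.47, SE 0.43, edgeR adjusted p = 0.338, DESeq2 adjusted p = 0.000207). Both DSS libraries were below both water libraries. Pla2g2a, a secreted phospholipase gene that C57Bl/6 mice are known to carry in a disrupted form, had 5.28 and 10.4 CPM in DSS and 24.6 and 18.8 CPM in water (edgeR adjusted p = 0.490). Pla2g3, another secreted form, had 8.56 and 12.9 CPM in DSS and 35.7 and 14.1 CPM in water (edgeR adjusted p = 0.599). Pla2g4a, the main cytosolic enzyme that feeds cyclooxygenases, had 25.5 and 31.7 CPM in DSS and 31.2 and 41.8 CPM in water, so the groups overlapped.

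A list of genes that induce COX-2, carry its induction or, like Nfkbia, restrain NF-kB was read next. It was chosen, like the other gene lists here, with earlier results of these data known. Of 21 tested, among them cytokines, their receptors, NF-kB subunits, C/EBP and AP-1 genes, 19 had a positive fold change, the median was 0.57 (log2), and the groups did not overlap for 17 higher, beside 20.8% of all genes, and for 1 lower, Cebpd, beside 18.7%. edgeR called 0 of them, and 8 were higher at an unadjusted p under 0.05, beside 5.06% of all genes. DESeq2, which called 1.64% of all genes higher, called Il1b, Il1r1 and the NF-kB inhibitor gene Nfkbia higher. Il1b, which encodes interleukin-1 beta, had 1920 and 1120 CPM in DSS and 205 and 519 CPM in water (log2 fold change 2.07, SE 0.59, edgeR adjusted p = 0.490, DESeq2 adjusted p = 0.00265). Il1r1, its receptor gene, had 86.0 and 80.9 CPM in DSS and 15.4 and 35.6 CPM in water (log2 fold change 1.71, SE 0.43, edgeR adjusted p = 0.471, DESeq2 adjusted p = 0.0145). Il1a had 68.0 and 120 CPM in DSS and 4.86 and 37.1 CPM in water. Cebpb, one of the C/EBP genes, had 374 and 384 CPM in DSS and 91.5 and 258 CPM in water. The summed neutrophil, eosinophil, mast cell and B and plasma cell markers given above were also higher in both DSS libraries, as were 5 of 6 T cell markers, and the part of these cells in the list was not tested.

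Of 7 tested genes that control the stability of COX-2 mRNA, 5 had a positive fold change, the median was 0.19 (log2) and edgeR called 0, with 0 at an unadjusted p under 0.05 and 0 by DESeq2. Zfp36, which encodes tristetraprolin, a protein that speeds the decay of AU-rich mRNAs, had 2330 and 2670 CPM in DSS and 1070 and 1710 CPM in water (log2 fold change 0.85, SE 0.43, edgeR adjusted p = 0.679). Celf2, which binds the COX-2 mRNA, had 108 and 95 CPM in DSS and 40.9 and 85.0 CPM in water, and Zfp36l1, a relative of Zfp36, had 498 and 422 CPM in DSS and 207 and 363 CPM in water. The groups did not overlap for these 3 genes, all higher in DSS, beside 20.8% of all genes, and for 0 lower.

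Among genes known to respond to cAMP, which EP2 and EP4 raise, all 13 tested had a positive fold change, the median was 1.04 (log2), and the groups did not overlap for 9, all higher in DSS, beside 20.8% of all genes. edgeR called 0, and 6 were higher at an unadjusted p under 0.05, beside 5.06% of all genes. DESeq2 called 1, Per1, beside 1.64%. The cAMP list too was chosen with earlier results of these data known. Per1, a clock gene with cAMP response elements, had 348 and 307 CPM in DSS and 112 and 143 CPM in water (log2 fold change 1.36, SE 0.34, edgeR adjusted p = 0.471, DESeq2 adjusted p = 0.0103). Pde4b, which degrades cAMP, had 275 and 263 CPM in DSS and 56.4 and 140 CPM in water. Nr4a3, a nuclear receptor gene, had 129 and 71.4 CPM in DSS and 17.1 and 46.4 CPM in water. Many of these genes also answer other stimuli, and the neutrophil, eosinophil, mast cell, B and plasma cell and T cell markers stood to the groups as described for the inducers, with a part that was not tested.

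Further PGE2 and prostanoid genes completed the pathway. Of Abcc4, Ptgr1, Ptgr2, Cbr1 and Ptger1, which cover export, further breakdown and EP1, 1 was above 0 and edgeR called 0, with 0 at an unadjusted p under 0.05 and 0 by DESeq2. Abcc4, the PGE2 exporter gene, had 18.8 and 22.4 CPM in DSS and 17.5 and 16.8 CPM in water. It was the one gene of the 5 whose groups did not overlap, higher in DSS as 20.8% of all genes were. Ptgr2, which reduces the product of Hpgd's enzyme, had 9.56 and 16.9 CPM in DSS and 18.6 and 16.8 CPM in water, and the carbonyl reductase gene Cbr1 had 38.3 and 90.2 CPM in DSS and 164 and 62.3 CPM in water. Among 8 tested genes of other prostanoids, 4 were above 0 and 4 below, and edgeR and DESeq2 called 0. At an unadjusted p under 0.05, 1 was lower, beside 3.39% of all genes. That one was Hpgds, the haematopoietic prostaglandin D synthase gene, with 19.2 and 8.42 CPM in DSS and 28.8 and 34.3 CPM in water. The thromboxane receptor gene Tbxa2r had 9.79 and 4.44 CPM in DSS and 4.18 and 5.64 CPM in water, and the thromboxane synthase gene Tbxas1 had 15.6 and 25 CPM in DSS and 16.2 and 40.2 CPM in water.

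Of the interleukin-22 axis, named in the title of the series, 9 of 11 tested genes had a positive fold change, and the median was 0.88 (log2). The groups did not overlap for 4, all higher in DSS, beside 20.8% of all genes. edgeR called 0, and 1 was higher at an unadjusted p under 0.05, beside 5.06% of all genes. DESeq2 called 1 higher, beside 1.64%, and Il23a was the gene in both cases. T cells are known producers of interleukin-22, and 5 of 6 T cell markers had a positive fold change (median 2.48, log2). DESeq2 called 4 of the 6 T cell markers higher, beside 1.64% of all genes. Their sums of 117 and 62.8 CPM in DSS and 25 and 65.0 CPM in water overlapped, and their part in these values was not tested. Il22 itself had 131 and 89 counts in DSS and 2 and 72 counts in water, or 4.88 and 2.53 CPM in DSS and 0.0593 and 2.10 CPM in water. The value of water replicate 1 was below the 0.0889 CPM that 3 counts give in that library. For Il22 the log2 fold change was 1.77 (SE 1.30, 95% interval -1.40 to 4.94, edgeR adjusted p = 0.784). Il23a, whose product with Il12b's forms interleukin-23, had 12.4 and 7.23 CPM in DSS and 0.296 and 2.22 CPM in water (log2 fold change 2.96, SE 0.92, edgeR adjusted p = 0.506, DESeq2 adjusted p = 0.0135). Ahr, a transcription factor gene of interleukin-22 producers, had 86.0 and 113 CPM in DSS and 25.9 and 68.4 CPM in water. Reg3g, an epithelial antimicrobial lectin gene induced by interleukin-22, had 377 and 897 CPM in DSS and 442 and 225 CPM in water, so the groups overlapped.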

How the data were processed

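The authors deposited raw read counts per gene symbol, whole numbers with no normalization, for 2 DSS and 2 water libraries. Tools listed in the submitters' processing notes are HISAT2, STAR, HTSeq, featureCounts and DESeq2, with build mm10 (GRCm38). Roles, versions, annotation and strand setting are not stated, so genes that overlap on opposite strands may share counts. Among counts of 1 to 10, 70.5% to 73.2% were even in each library, which leaves it unsure that counts are independent reads. The labels do not tie replicates to separate mice, and p-values then cover only the spread among these libraries, possibly a technical one.

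The default filterByExpr of edgeR 4.0.16 kept 18788 genes with 99.4% of counts (count of 10, total of 15). After TMM scaling, edgeR's quasi-likelihood test (robust, R 4.3.3) compared the groups, with Benjamini-Hochberg adjustment over all genes and a threshold of 0.05. The SE is the absolute log2 fold change over the square root of F. An exact two-sided permutation test of 2 against 2 libraries cannot go below p = 0.333 and was not used. Alternatives were DESeq2 1.42.0, limma-voom (limma 3.58.1), other scalings and filters, a replicate block and leaving out each library. Fits were checked on simulated counts.

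Coordinates and exon lengths came from GENCODE vM21 (GRCm38), matched by symbol for 49951 of 53819 symbols, and promoter windows from RefSeq. Both matched all 10 members. Members and gene lists were chosen with earlier results of these data known. From each partner list, called genes and up to 3 with the largest absolute log2 fold change at 5 CPM or more in the higher group are named. Pla2g4a, Acsl4, Anxa1, Mgll, Pla2g1b, Ptger1, Nfkbia, Cebpb, Cebpd, Il22, Ptgs2os and Ptgs2os2 were added after their values were seen. Nearest patterns used log2 CPM with a prior count of 2.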

Additional observations from a re-analysis of the deposited data

How the results depend on the processing

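Over 18 alternatives (1 of them chosen after seeing the data), 4 of the 10 members, namely Ptgs2, Hpgd, Ptges and Ptger3, kept their direction in all, and the other 6 reversed when 1 library was left out. Without each library in turn, with either tool, Ptgs1 ran from -0.79 to 0.02, Ptges2 from -1.10 to 0.22, Ptges3 from -0.08 to 0.19, Slco2a1 from -0.62 to 0.97 (0.96 with edgeR), Ptger2 from -0.50 to 1.93 (1.92 with edgeR) and Ptger4 from -0.25 to 0.51. With edgeR, Ptgs2 ran from 1.38 to 3.43 on the log2 scale without each library in turn and was called in 0 of these fits (lowest adjusted p = 0.0972). With DESeq2 the range was 1.41 to 3.43. Ptgs2 was called without a count filter (2.09, adjusted p = 0.00140), by DESeq2 (2.08), by DESeq2 without water replicate 2 (3.43) and by DESeq2 without DSS replicate 2 (2.37), so 1 member was called higher in these 4 fits and 0 in the other 14. Hpgd was called lower, as 1 member, without a count filter (-1.15) and by DESeq2 without DSS replicate 2 (-1.72). The cause was not tested.

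Without water replicate 1, Ptges3 became -0.08 with edgeR and -0.05 with DESeq2, and Ptger4 became -0.25 and -0.22. Without water replicate 2, Ptgs1 became 0.02 in both. Without DSS replicate 1, Ptges2 became 0.21 and 0.22, Ptges3 -0.05 and -0.04, and Ptger2 -0.50 and -0.49. Without DSS replicate 2, Slco2a1 became -0.62 and -0.61, and Ptger4 -0.11 and -0.09.

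Over all genes, edgeR called 0 higher and 3 lower. Without a count filter it called 710 higher and 341 lower, and DESeq2 called 322 and 175. limma-voom and the replicate block called 0 lower and 0 higher. Without each library in turn, edgeR called from 0 to 123 higher and from 3 to 73 lower, and DESeq2 called 135 higher and 31 lower without water replicate 1, 639 and 193 without water replicate 2, 79 and 92 without DSS replicate 1, and 364 and 212 without DSS replicate 2. Counts without water replicate 2 were the highest with edgeR, at 123 higher and 73 lower.

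With the replicate number as a block, Ptgs2 had a log2 fold change of 2.39 (adjusted p = 0.752) and Hpgd -1.21 (adjusted p = 0.818), and 0 members were called. Same-numbered libraries did not deviate together (r = -0.187 across 12156 genes, which are not independent), so the numbers are not taken to pair the libraries. A block that pairs replicate 1 of one group with replicate 2 of the other called 29 genes higher and 15 lower and 0 members.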
